A study of Mus musculus with 14 samples.

Results

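Cytosolic ribosomal protein genes encode the proteins of the ribosome that translates nuclear messages. They were taken as the loci that carry a mouse Rpl or Rps gene name (Rplp0, Rplp1, Rplp2 and Rpsa included), carry no small nucleolar RNA name, and reach at least 10 FPKM in at least 3 libraries. FPKM counts fragments relative to transcript length and to the number of fragments in the library. Of 67811 loci in the files, 91 carry a ribosomal protein name and 64 met the rule, 37 for the large subunit and 27 for the small subunit. Another 16 were left out because the locus also carries a small nucleolar RNA name, and 11 were under the level limit. Among those 11, the Rplp0, Rps15, Rpl39 and Rps20 loci are low second loci at the place of a member of that name. Rplp2 is likewise a low second locus of a gene left out for its small nucleolar RNA name. The name rule covers only names that start with Snor, Scarna or Snhg, and 13 members still hold a small nucleolar RNA gene inside. The members were thus selected on their FPKM level, so the levels below are a description, while the differences between genotypes played no part in the rule.

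RNA came from whole heads, brain included, of C57BL/6J mouse embryos at E12.5. The wild-type group (WT) had 5 Zcchc8+/+ libraries, the heterozygous group (HET) 3 Zcchc8+/- libraries and the knockout group (KO) 6 Zcchc8-/- libraries, with no treatment in any group. The sources used here do not give how the allele was made. Libraries were stranded and made from messenger RNA of the whole head, so each value is an average over many cell types. By their Xist and Y-linked RNA, libraries WT1, WT3, WT4, HET3, KO2 and KO3 were male and the others female. Every genotype thus drew on embryos of both sexes, in unequal shares. Whether each library is a separate embryo is not stated, and where libraries share an embryo, the p-values reflect technical spread in part.

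Every ribosome holds a single copy of nearly all of these proteins, which assemble on ribosomal RNA in the nucleolus before the subunits are exported. Ribosomal protein messages are among the most abundant of growing cells. Most start at a cytidine followed by a run of pyrimidines, the 5′ terminal oligopyrimidine (TOP) motif, through which mTOR signalling and LARP1 set their translation and stability. ZCCHC8 holds together the NEXT complex (nuclear exosome targeting), which feeds unstable nuclear RNA, upstream promoter transcripts included, to the RNA exosome for decay. Many ribosomal protein genes also host small nucleolar RNAs in their introns.

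The start of these genes is shown first because pyrimidine runs there are more frequent among the members than among other genes, though many members lack one at the annotated start. RefSeq windows of 300 bases on GRCm38.p6 (mm10), from 250 bases before to 50 bases after the start, were found for 48 of the 64 genes. The lines below, chosen among the members that have such a run, hold 10 bases before the start and 20 bases from it, 5′ to 3′ on the strand of the gene, with the unbroken run of C and T that covers the first transcribed base in capitals.
Rpl15 (chr14:18270967-18270996, minus strand): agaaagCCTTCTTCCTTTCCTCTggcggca
Rpl35 (chr2:39005112-39005141, minus strand): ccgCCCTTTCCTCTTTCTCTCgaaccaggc
Rps10 (chr17:27635225-27635254, minus strand): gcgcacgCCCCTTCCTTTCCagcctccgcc
Rps6 (chr4:86857348-86857377, minus strand): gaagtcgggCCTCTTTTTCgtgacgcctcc
Rps27 (chr3:90213629-90213658, minus strand): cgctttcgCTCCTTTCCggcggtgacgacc
Rps24 (chr14:24490668-24490697, plus strand): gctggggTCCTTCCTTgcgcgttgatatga
A first base of C or T with at least 4 more behind it was found in 14 of the 48 genes (29.2%), against 5.28% of all 27025 gene symbols with a window. A run of at least 8 C or T from 20 bases before to 30 bases after the start was found in 27 of 48 (56.3%), against 21.5% of all. Over the 300 bases and both strands, the ETS motif CCGGAAG was in 22 of 48 (45.8%) against 9.93% of all genes. The letters AAGATGG of YY1 were in 9 of 48 (18.8%) against 7.28%. The E-box CACGTG was in 5 of 48 (10.4%) against 8.09%, close to the background. These are matches of letters at annotated starts, which can lie some bases from the start used in the head.

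At the targeted gene the libraries followed their labels. The Zcchc8 locus was at 39.7 ± 2.32 FPKM in the 5 WT libraries, 25.7 ± 1.64 in the 3 HET libraries and 15.5 ± 3.91 in the 6 KO libraries (mean ± SD), a log2 difference of -1.39 between KO and WT (limma-trend adjusted p = 2.1e-06). The HET libraries (24.0 to 27.2) lay below all WT libraries (36.6 to 42.3), a log2 difference of -0.62. That difference did not pass after adjustment (limma-trend unadjusted p = 0.0036). The files hold no counts, so the depth of each library is unknown and no counting interval can be given. Markers of some head tissues were lower in KO than in WT: 4 of 5 lens genes, 4 of 6 surface epithelium genes, 4 of 8 head mesenchyme genes, 3 of 7 cartilage genes and 3 of 8 skeletal muscle genes, with 1 of 9 neuronal genes lower, and 1 of 8 neural progenitor and 1 of 6 erythroid genes higher. Among 4 endothelial and 4 myeloid genes, 0 passed. Over all 18217 tested loci, 5.61% were lower and 19% higher in KO than in WT. The higher calls in 1 of 8 neural progenitor and 1 of 6 erythroid genes do not exceed that 19%. The summed FPKM of the lens genes ran from 62.4 to 89.7 in WT and from 17.97 to 86.0 in KO. In bulk RNA, fewer cells of a type and less RNA per cell cannot be told apart, and the part of these shifts in the values below was not tested.

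The members were among the most abundant messages of the head. Their mean over the 14 libraries ran from 48.7 FPKM for Rpl7l1 to 2054 for Rps24. Rps24, a small subunit protein on chromosome 14 (24487125 to 24496959, plus strand), had 1830, 2056, 1920, 2235 and 2130 FPKM in the WT libraries and 1959, 1998 and 1907 in HET. In KO, Rps24 ran from 1947 to 2293 with a median of 2123, and the 3 genotypes overlap. Rplp1, an acidic protein of the stalk that recruits elongation factors, had a mean of 2045 and cannot be ranked against Rps24, since both ran from about the same lowest to the same highest library (1830 to 2293 and 1757 to 2380). Rps27 followed with a mean of 1700, and Rpl41, the shortest ribosomal protein, with 1583. FPKM of very short messages such as Rpl41 depends on how fragment length was handled, which the sources used here do not state.

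At the low end stood 4 genes that are variants or relatives of a main ribosomal protein gene. Rpl22l1 had a mean of 163 FPKM, Rps27l 122, Rps4l 79.6 and Rpl7l1 48.7, and each of these 4 lay below every other member. Rps4l is annotated in GENCODE M21 as a transcribed processed pseudogene of 1 exon, related to Rps4x, and fragments of such copies may be assigned to either locus. The level limit does not cut through the set. Rpl7l1, just inside it, never fell under 45.3 FPKM, and Rpl39l, just outside, never passed 1.22 FPKM.

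**Figure D1:**
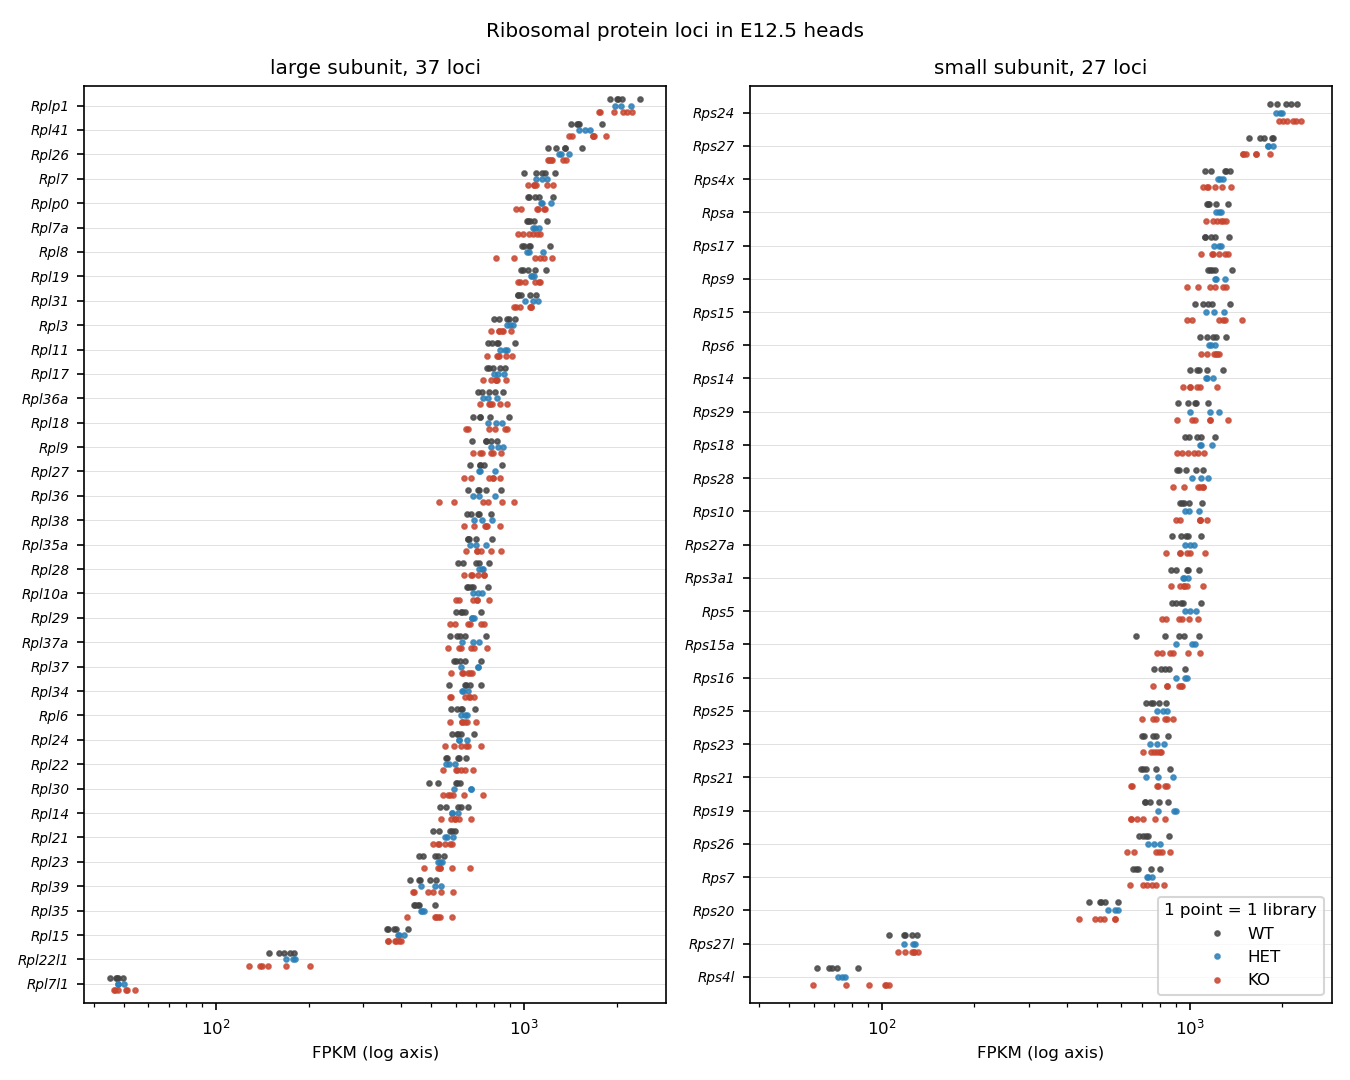
FPKM (log axis) of the 64 ribosomal protein loci, large subunit on the left and small subunit on the right, ordered by mean, with 1 point for each of 5 WT, 3 HET and 6 KO libraries. The groups overlap at every locus, and Rpl22l1, Rps27l, Rps4l and Rpl7l1 stand below the rest.

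The test was limma-trend on log2(FPKM + 0.1), with a threshold of 0.05 on the Benjamini-Hochberg adjusted p. No member passed it in KO against WT: 0 of 64 were higher and 0 of 64 were lower. Other scalings changed that count: 2 were higher under quantile normalization, 5 in the authors' log2 matrix, and 2 higher with 1 lower under library weights. Over all 18217 tested loci, 24.6% passed in either direction, 19% higher and 5.61% lower. Among the 760 other loci with a mean of at least 100 FPKM, the range of nearly all members, 7.11% passed. At an unadjusted p under 0.05, 2 of 64 members differed, Rps4l and Rpl35, against 6276 of 18217 tested loci and 124 of the 760 other abundant loci. In no member were all KO libraries above or all below the WT libraries, which was the case for 17.3% of all tested loci.

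The median log2 difference between KO and WT over the 64 loci was 0.018 (all tested loci: -0.0019), with 38 positive and 26 negative values between -0.12 (Rps27) and 0.32 (Rps4l). Its sign is not settled: leaving out 1 library at a time gave medians from -0.011 (without WT1) to 0.057 (without WT4). The 95% intervals of single members ran from -0.32 at the lowest bound to 0.60 at the highest, and 63 of 64 intervals lay inside -0.5 to 0.5. The 27 small subunit loci had a median of 0.025 and the 37 large subunit loci 0.0090. Summed over all members, WT libraries had 54605 ± 3923 FPKM (SD, n = 5), HET libraries 56501 ± 2204 (SD, n = 3) and KO libraries 54850 ± 3461 (SD, n = 6). The ratio of large to small subunit sums was 1.10 ± 0.0082 for WT libraries (SD, n = 5), 1.09 ± 0.0042 for HET (SD, n = 3) and 1.10 ± 0.015 for KO (SD, n = 6).

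**Figure D2:**
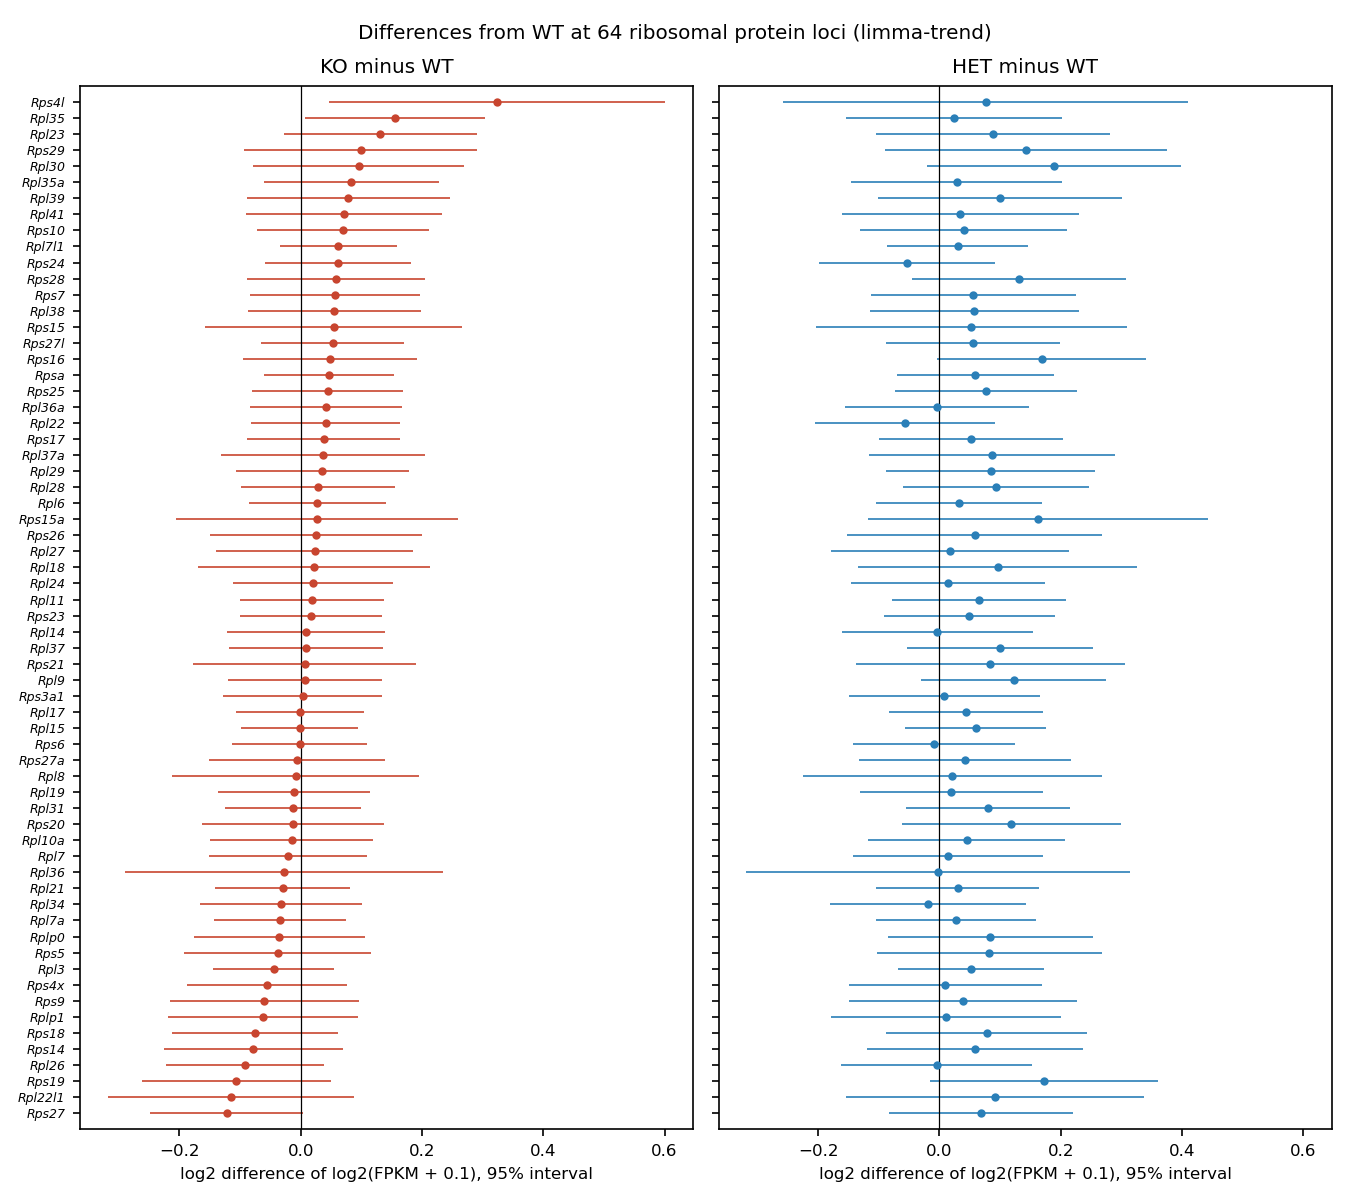
Log2 differences of KO (left) and HET (right) from WT at the 64 ribosomal protein loci, with 95% intervals from limma-trend, ordered by the KO difference. In KO only the intervals of Rps4l and Rpl35 leave out 0, without adjustment for the number of loci tested, and in HET none does.

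Rps4l had the largest difference of any member. It lies within a long bundle of loci on chromosome 6 (gene at 148354656 to 148355598, plus strand). Its WT libraries were at 71.5, 67.5, 68.8, 83.8 and 61.7 FPKM and its HET libraries at 74.3, 76.0 and 72.0. The KO libraries ran from 59.8 to 105.9 with a median of 96.7. All KO libraries except KO2 (76.4) and KO3 (59.8) lay above every WT library, and KO3 lay below them all. KO2 and KO3 were also the only male KO libraries, and how far this split follows sex was not tested. The log2 difference was 0.32 (SE 0.13, 95% interval 0.05 to 0.60, limma-trend adjusted p = 0.0876). Without KO3 it was 0.44 (limma-trend adjusted p = 0.0022). With all libraries kept, the limma-trend adjusted p was 0.0492 under quantile normalization, 0.0142 in the authors' matrix and 0.0039 with library weights, so the call turns on KO3 and on the scaling or weighting.

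Rpl35, a large subunit protein beside the exit of the peptide tunnel, with the long pyrimidine run shown above, came next. It had 453.4, 454.7, 442.8, 513.8 and 438.6 FPKM in WT, 465.4, 464.4 and 473.6 in HET, and 417.8 to 582.6 with a median of 521.1 in KO. KO2 was the lowest of all 14 libraries. The log2 difference was 0.16 (SE 0.07, limma-trend adjusted p = 0.124), and without KO2 it was 0.21 (limma-trend adjusted p = 0.0048). Rpl23, a large subunit protein that can bind the p53 regulator MDM2, had 502.9 ± 39.5 FPKM (SD, n = 5) in WT and 552.6 ± 65.6 (SD, n = 6) in KO, a log2 difference of 0.13 (limma-trend adjusted p = 0.239).

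Rps27 had the most negative difference. It read 1565, 1851, 1693, 1862 and 1743 FPKM in WT, 1802, 1870 and 1799 in HET, and 1489 to 1819 with a median of 1582 in KO. The log2 difference of KO from WT was -0.12 (SE 0.06, 95% interval -0.25 to 0.00, limma-trend adjusted p = 0.159). Without KO1 it was -0.16 with a limma-trend adjusted p of 0.0419. Rpl22l1, the paralog that can stand in for Rpl22 and binds RNA outside the ribosome, read 165.2 ± 11.8 FPKM (SD, n = 5) in WT and 154.0 ± 26.8 (SD, n = 6) in KO. Its KO libraries spread from 127.6 to 201.4, with KO3 the highest, and without KO3 the log2 difference went from -0.11 to -0.20 (limma-trend adjusted p = 0.0472).

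Paralogs can be set against their partners within each library, where a shift of the whole library cancels. Rps27l was at 6.87 ± 0.48% of Rps27 among WT libraries (SD, n = 5), 6.80 ± 0.29% among HET (SD, n = 3) and 7.76 ± 0.69% among KO (SD, n = 6). Rpl22l1 was at 27.6 ± 1.11% of Rpl22 in WT, 30.5 ± 0.53% in HET and 24.8 ± 2.56% in KO. Rps4l was at 5.66 ± 0.70% of Rps4x in WT, 5.89 ± 0.07% in HET and 7.53 ± 1.77% in KO. Rpl7l1 was at 4.21 ± 0.33% of Rpl7 in WT, 4.25 ± 0.10% in HET and 4.46 ± 0.25% in KO. In two-sided exact permutation tests of KO against WT, adjusted over 5 such pairs, the p was 0.0758 for the Rps27l, Rpl22l1 and Rps4l pairs and 0.19 for the Rpl7l1 pair. In the pair that passed, Rpl39l, a relative of Rpl39 under the level limit, went from 0.191 ± 0.047% of Rpl39 in WT to 0.091 ± 0.032% in KO (adjusted exact permutation p = 0.0433). The Rpl39l locus itself was also lower in KO than in WT (log2 difference -0.86, limma-trend adjusted p = 0.0321). Over all tested loci, 5.61% were lower. The ratio and the call both rest on FPKM values of Rpl39l near or under 1.

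Genes whose loss is known to cause disease or developmental defects had KO means within 1 SD of their WT means, as did most other members. Rpl11, which binds MDM2 with 5S RNA when ribosome assembly is disturbed, read 825.6 ± 65.2 FPKM (SD, n = 5) in WT and 836.1 ± 52.2 (SD, n = 6) in KO. Rps6, the substrate of S6 kinase, read 1188 ± 88.9 in WT and 1185 ± 61.1 in KO, with a 95% interval of the log2 difference from -0.11 to 0.11. Rpl38, whose mutation disturbs the mouse axial skeleton, read 707.0 ± 49.3 in WT and 735.7 ± 67.3 in KO. Rpl24, mutated in the Belly spot and tail mouse, read 622.7 ± 38.3 in WT and 632.9 ± 58.1 in KO. Rps7 read 710.6 ± 61.4 and 739.1 ± 63.6, Rps20 523.2 ± 42.3 and 519.2 ± 51.0, and Rpl29 643.9 ± 47.1 and 661.3 ± 66.1, each for WT and KO in that order. Rpsa, also known as a laminin receptor, read 1197 ± 82.0 in WT and 1236 ± 67.1 in KO. In each of these 8 genes the means differed by less than the SD of either group.

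The stalk and the main partners of the paralogs also had no call. Rplp0, which anchors the stalk, read 1104 ± 85.5 FPKM (SD, n = 5) in WT and 1078 ± 95.7 (SD, n = 6) in KO, and Rplp1 2079 ± 180 and 1994 ± 203. Rpl22 read 599.7 ± 38.5 in WT and 617.5 ± 47.3 in KO. Rpl3, at the peptidyl transferase centre, read 868.0 ± 52.4 and 841.2 ± 40.5. Rpl7 read 1135 ± 94.9 and 1118 ± 79.3, Rpl26 1346 ± 131 and 1260 ± 72.4, and Rpl39 470.7 ± 35.5 and 498.7 ± 58.4. Rps4x, on the X chromosome, read 1253 ± 98.4 and 1206 ± 98.4, and Rpl41 1542 ± 147 and 1622 ± 172.

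In HET against WT, 0 of 64 members were higher and 0 of 64 lower (limma-trend), where 0.00549% of all tested loci passed, that is 1 locus. The Zcchc8 locus, lower in all HET libraries, did not pass either, so the 0 calls do not show that no member differed. At an unadjusted p under 0.05, 0 of 64 members differed, against 354 of 18217 tested loci and 11 of the 760 other abundant loci. Groups did not overlap at 0 of 64 members, against 2.48% of all tested loci. The median log2 difference was 0.054 (all tested loci: -0.0046), and 56 of 64 values were positive. Leaving out 1 library at a time, that median ran from 0.028 (without HET4) to 0.094 (without WT4). Rpl30 had the largest, with 567.9 ± 55.4 FPKM (SD, n = 5) in WT and 646.0 ± 46.8 (SD, n = 3) in HET, a log2 difference of 0.19 (95% interval -0.02 to 0.40, limma-trend adjusted p = 1). Rps19 had 0.17 and Rps16 also 0.17, with limma-trend adjusted p-values of 1. Values at the other end were Rpl22 with -0.06, Rps24 with -0.05 and Rpl34 with -0.02.

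In KO against HET, 1 of 64 members was lower and 0 were higher, where 22.3% of all tested loci passed (17.9% of all tested loci higher, 4.36% lower) and 6.58% of the other loci at 100 FPKM or more. The member was Rps19, a small subunit protein whose loss in people causes Diamond-Blackfan anaemia (chromosome 7, 24884371 to 24889806, plus strand). Rps19 read 786.8, 893.0 and 905.4 FPKM in HET, 716.6, 794.8, 745.9, 852.2 and 714.8 in WT, and 644.9 to 830.5 with a median of 690.6 in KO. The highest KO library, KO1, lay above the lowest HET library, HET3, so the groups overlap. The log2 difference was -0.28 (SE 0.09, 95% interval -0.46 to -0.10, limma-trend adjusted p = 0.0271). Against WT the same KO libraries gave -0.11 (limma-trend adjusted p = 0.339), which shares the KO samples. The call was lost without HET4 (log2 difference -0.25, limma-trend adjusted p = 0.12), without HET5 (-0.24, 0.123) and without KO4 (-0.25, 0.0573), where the difference kept most of its size. It was also lost with no filter (limma-trend adjusted p = 0.0581), under the common sum of other loci (1) and under the replicate block (0.1). Groups did not overlap at 0 of 64 members, against 22.9% of all tested loci.

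In some libraries nearly all members moved together. In WT4, all 64 members lay above their WT mean, with a median log2 deviation of 0.16, and in KO2, 1 member did, with a median of -0.14. WT1 had 4 members above the WT mean (median -0.09), HET4 had 62 (median 0.10) and KO5 54 (median 0.13), while HET3 had 34, KO3 35 and KO4 30, near an even split. The 760 other loci at 100 FPKM or more moved the same way but less in WT4 (median 0.065) and KO2 (median -0.044), while the median over all tested loci was 0.00031 in WT4 and 0.0059 in KO2. Where a library shifts nearly all members at once, as WT4, KO2 and HET4 did, differences of the same sign across members are not separate measurements, which bears on the 56 positive values in HET. The pooled spread of a member within genotypes had a median SD of 0.11 on the log2 scale, against 0.10 for the other abundant loci, from 0.067 for Rpl7l1 to 0.24 for Rps4l.

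**Figure D3:**
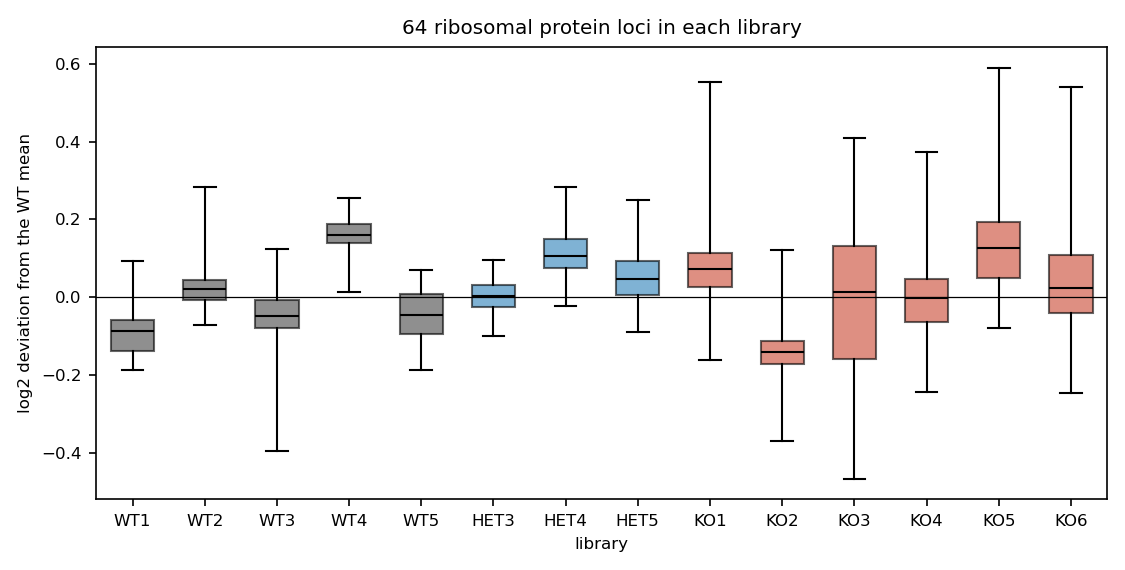
Log2 deviation of the 64 ribosomal protein loci from their WT mean in each of the 14 libraries, as boxes from the first to the third quartile with the median as a line and whiskers to the lowest and highest member. WT4 lies wholly above 0, KO2 nearly wholly below, and KO3 has the widest box.

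KO3 differed in another way. Its median deviation was 0.012, but its members spread with an SD of 0.19, against 0.068 to 0.12 in the other KO libraries and 0.043 to 0.073 in the WT and HET libraries. The WT mean includes the WT libraries themselves, which narrows their spread. In KO3 the spread followed base composition. The GC content of the coding transcripts in GENCODE M21 was available for 63 of 64 genes and ran from 39.8% (Rpl22l1) to 60.8% (Rpl36). Across these 63 genes, which share a library and so are not independent, the Pearson correlation of the KO3 deviation with GC content was -0.67. The 32 genes richer in GC had a median deviation of -0.15 in KO3 and the 31 poorer genes 0.12. In the other libraries the correlation ran from -0.48 (WT5) to 0.52 (KO1), and for the difference of KO from WT over all libraries it was -0.070. The part of base composition in the values of Rps4l, Rpl22l1 and the other members that turn on KO3 was not tested.

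**Figure D4:**
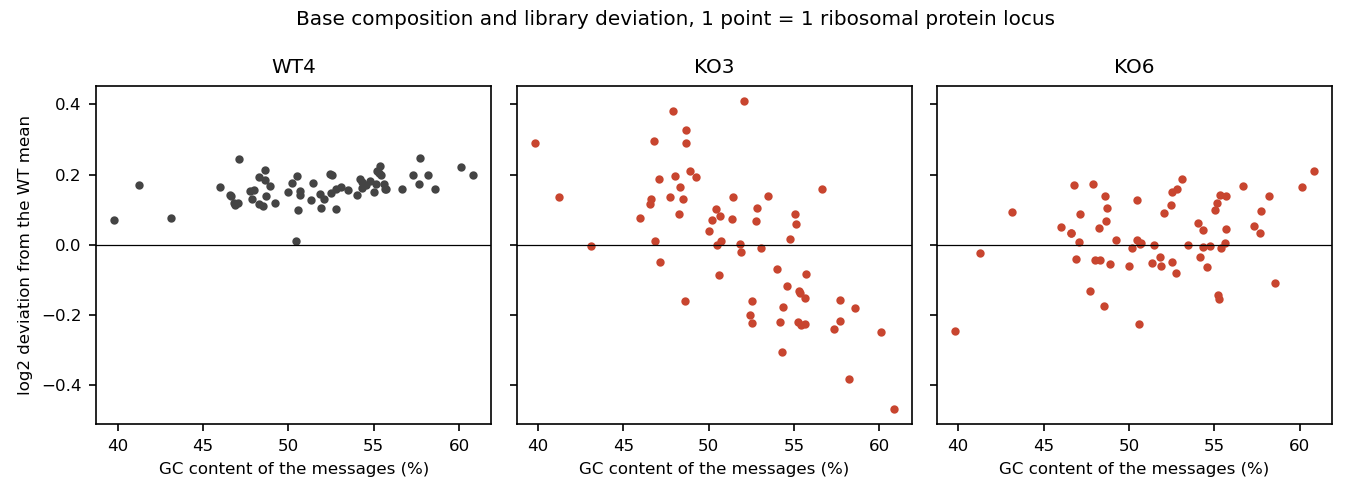
Log2 deviation from the WT mean against the GC content (%) of the coding transcripts, 1 point for each of 63 ribosomal protein genes, in WT4, KO3 and KO6. Points slope down in KO3 (correlation -0.67), while in WT4 they lie above 0 at every GC content.

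Loci without a gene name just upstream of the members were higher in KO, at genes that had no call of their own. This set was formed after values had been seen: unnamed loci within 5 kb upstream of a member's start that do not touch the gene. There were 10 of them, 9 passed the filter on low values, and 9 of 9 were higher in KO than in WT (limma-trend), where 65.7% of the 2004 tested unnamed loci and 19% of all tested loci were higher. A locus at or near 0 in WT passes that filter only through the KO libraries, so the count of 9 is no support for the set. In HET against WT 0 of 9 were higher, against 0.0499% of the unnamed loci.

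The largest lies 126 bases before the annotated start of Rpl31, a large subunit protein at the exit of the peptide tunnel (locus at chromosome 1, 39363465 to 39367716). It read 0.101, 0.0348, 0.0200, 0.0169 and 0.0178 FPKM in WT, 0.0616, 0.230 and 0.0614 in HET, and 3.63 to 6.497 with a median of 5.09 in KO. All KO libraries lay far above the others. As it passed the filter only through the KO libraries, no p is given. The difference on the log2(FPKM + 0.1) scale was 5.21 (SE 0.22), while the Rpl31 locus itself differed by -0.01. The locus before Rps21 (chromosome 2, 180249592 to 180257079) went from 0.308 ± 0.085 FPKM (SD, n = 5) in WT to 2.099 ± 0.29 (SD, n = 6) in KO, with 0.385 ± 0.10 (SD, n = 3) in HET. The locus before Rpsa (chromosome 9, 120125434 to 120127545) went from 0.671 ± 0.22 to 1.37 ± 0.23, with 0.781 ± 0.24 in HET.

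Loci before Rps27l and Rpl23 were near 0 outside the KO libraries. The locus before Rps27l (chromosome 9, 66944252 to 66945957) read at most 0.0195 FPKM in WT and at most 0.0357 in HET, and 0.916 to 1.61 in KO. The locus before Rpl23 (chromosome 11, 97782583 to 97784357) read at most 0.0573 in WT and at most 0.151 in HET, and 0.758 to 1.83 in KO. Before Rps20 the locus was listed at 0 in 4 of 5 WT libraries and read 0.473 to 1.73 in KO, and before Rps26 it was also listed at 0 in 4 of 5 WT libraries and read 0.118 to 1.06 in KO. The loci before Rps7 (KO mean 0.590 ± 0.17) and Rpl14 (0.497 ± 0.14) were lower still. The locus before Rpl38, with a mean of 0.170 in KO and listed at 0 in 3 of 5 WT libraries, did not pass the filter. All of these levels are small beside those of the genes.

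**Figure D5:**
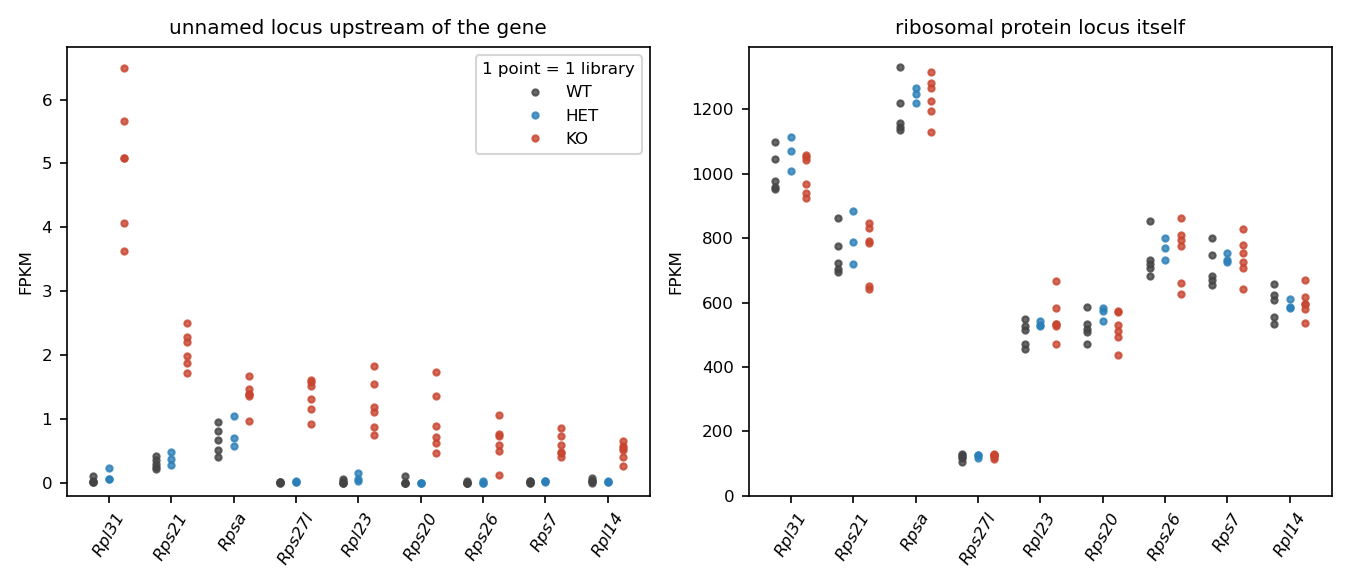
FPKM of the 9 tested unnamed loci upstream of ribosomal protein genes (left) and of the genes themselves (right), 1 point per library, ordered by the KO mean of the upstream locus. KO libraries lie above all WT and HET libraries at 8 of the 9 upstream loci, which all passed the filter through KO libraries alone, Rpsa being the exception. KO did not overlap WT at 17.3% and HET at 22.9% of all tested loci, in either direction. At the 9 genes themselves the groups overlap.

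The windows below show where 3 of these loci end against the start of the gene. Each holds the 250 bases before the RefSeq start on GRCm38.p6, 5′ to 3′ on the strand of the gene, with the bases that lie inside the upstream locus in capitals.
Rpl31 (chr1:39367601-39367850, plus strand): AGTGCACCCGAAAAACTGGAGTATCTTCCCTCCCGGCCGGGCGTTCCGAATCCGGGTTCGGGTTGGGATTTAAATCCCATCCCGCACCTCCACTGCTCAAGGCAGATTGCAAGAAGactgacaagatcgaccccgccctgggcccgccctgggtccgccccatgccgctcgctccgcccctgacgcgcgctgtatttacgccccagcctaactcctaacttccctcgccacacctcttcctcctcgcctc
Rps27l (chr9:66945836-66946085, plus strand): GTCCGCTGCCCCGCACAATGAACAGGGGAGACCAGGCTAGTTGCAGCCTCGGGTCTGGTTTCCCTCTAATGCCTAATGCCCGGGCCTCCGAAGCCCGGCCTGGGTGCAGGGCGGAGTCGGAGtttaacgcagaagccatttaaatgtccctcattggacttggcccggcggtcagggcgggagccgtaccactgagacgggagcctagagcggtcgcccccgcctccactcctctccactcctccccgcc
Rpl23 (chr11:97782440-97782689, minus strand): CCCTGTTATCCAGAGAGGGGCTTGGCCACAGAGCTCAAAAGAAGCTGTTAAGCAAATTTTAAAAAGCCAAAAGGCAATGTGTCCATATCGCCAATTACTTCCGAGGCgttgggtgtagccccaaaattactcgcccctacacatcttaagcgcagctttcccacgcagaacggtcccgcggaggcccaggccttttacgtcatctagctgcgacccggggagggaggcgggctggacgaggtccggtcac
The gap between the locus and the start was 134 bases at Rpl31, 128 at Rps27l and 143 at Rpl23. At Rps7 it was 120 bases and at Rpsa 220. GC content over the 250 bases was 62.8% at Rpl31, 65.2% at Rps27l and 55.6% at Rpl23. The files give no strand for these loci, so whether their RNA runs toward the gene or away from it is not known.

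Small nucleolar RNA genes inside the ribosomal protein genes give a view of the introns, also looked at after values had been seen. Of 27 such genes with a locus of their own, 19 were listed at 0 in every library and 8 were tested, of which 3 were higher in KO than in WT, where 19% of all tested loci were. The 3 calls were Gm26448, Gm22270 and Gm26387. Of the 8 tested, Gm26387 and the uncalled Snora62 and Snora21 were listed at 0 in every WT library. They passed the filter through KO libraries, so the count of 3 is no support. Inside Rpsa, Gm26448 (chromosome 9, 120129351 to 120129553) read 0, 3.59, 3.75, 0 and 2.90 FPKM in WT, 1.85, 1.11 and 3.797 in HET, and 8.67 to 12.8 in KO, with no overlap (log2 difference 3.66, limma-trend adjusted p = 0.0205). Inside Rpl5, a gene left out of the members, Gm22270 read 6.66 ± 7.30 FPKM (SD, n = 5) in WT and 74.5 ± 20.8 (SD, n = 6) in KO (limma-trend adjusted p = 0.0403). Gm26387, the third of them, was at 0 throughout WT and in 2 of 3 HET libraries and read up to 13.5 in KO, so that it passed the filter through the KO libraries and no p is given. The 5 others did not pass the test. The selection of polyadenylated RNA removes most mature small nucleolar RNA, and FPKM of such short loci swings widely between libraries.

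The 16 ribosomal protein loci that carry small nucleolar RNA names, such as Rpl13a with 1593 FPKM in WT and 1616 in KO, also had no call. In KO against WT 0 of 16 were higher and 0 lower (limma-trend), with a median log2 difference of 0.0068 and values from -0.06 (Rplp2) to 0.09 (Rps2). Over all tested loci 24.6% passed, and 7.11% of the 760 other loci with a mean of at least 100 FPKM, which include these 16. Among so few loci, 0 calls is not far from the 7.11%.

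Among the genes that build, run or control the ribosome, few passed the test. Of 54 ribosome assembly factors tested, 1 rose and 1 fell in KO against WT (limma-trend), with a median log2 difference of 0.0063. Nop10, a part of the H/ACA particles that direct pseudouridylation, rose from 34.5 ± 2.36 FPKM (SD, n = 5) to 44.9 ± 3.51 (SD, n = 6), and Mrto4, which prepares the site of the stalk, fell from 45.5 ± 1.97 to 41.9 ± 1.48. Of 20 RNA polymerase I genes, 1 was lower, Taf1a of the promoter selectivity factor, with 8.98 ± 0.31 in WT and 7.46 ± 1.06 in KO. Of 18 translation factors with TOP messages, 1 was higher, the Eif4a2 locus, with 213.3 ± 8.97 and 258.1 ± 32.7, and that locus also carries small nucleolar RNA names. Eef1a1 was listed at 0 in 9 of 14 libraries and between 6077 and 6816 FPKM in the others, so its 0 values cannot be read as absence and its difference was not used. No member was listed at 0 in any library.

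Of 20 regulators of these messages, 1 was higher, the transcription factor Sp1, with 16.9 ± 1.05 FPKM (SD, n = 5) in WT and 20.8 ± 1.31 (SD, n = 6) in KO (log2 difference 0.30, limma-trend adjusted p = 0.000524). Of 58 mitochondrial ribosomal protein loci, 4 were higher and 0 lower, with a median log2 difference of 0.022. Mrpl36 rose from 30.03 ± 1.35 to 45.5 ± 4.34 and Mrpl57 from 28.6 ± 1.89 to 44.8 ± 5.88. The other 2 calls were low second loci under the names Mrpl1 and Mrpl17, at 2.37 and 2.01 FPKM in KO. Both were near 0 in WT and HET and passed the filter through the KO libraries alone, so these 2 calls are no support. The shares of these lists lie below the 24.6% of all tested loci but nearer to the 7.11% of the other loci with a mean of at least 100 FPKM. Many listed genes lie under 100 FPKM, such as Taf1a (8.98 in WT) and Sp1 (16.9 in WT), so the 7.11% is not a background of like level. The shares cannot be read as particular to ribosome genes, which was not tested. The lists were chosen with earlier results of these data known.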

How the data were processed

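Per the labels' protocols, total RNA of whole heads was made into stranded messenger RNA libraries. Per the submitters' processing notes, the build was mm10 and the tools included TopHat2 2.1.0 and Cuffdiff. The sources used here do not give how fragments that match several places were treated, which bears on ribosomal proteins with their many processed copies. The authors deposited FPKM values from Cuffdiff for 67811 loci per library, and a matrix of log2 FPKM with quantile-normalized columns, used as an alternative. A locus can span several genes: 11 of the 64 members carry several names, and 30 span other coding genes.

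Values were analysed as log2(FPKM + 0.1), which understates changes of low loci. Loci with at least 0.5 FPKM in at least 3 libraries were tested (18217, all 64 members among them). The fit was limma-trend with robust moderation (limma 3.58.1, R 4.3.3) over all 14 libraries with 1 mean per genotype, with Benjamini-Hochberg adjustment over the 18217 loci and a threshold of 0.05. The fit was tested on simulated data. Ratios were compared by exact permutation (scipy 1.17.1, Python 3.11.15). Gene models were GENCODE M21, and promoter windows RefSeq's, on the same build. The members and lists were chosen with earlier results of these data known. Members named are those past the threshold, the 3 largest differences each way, the 4 highest and lowest, paralogs, genes with a known loss phenotype and the stalk. Alternatives were pseudocounts of 0.5 and 1, other filters and scalings, the authors' matrix, the replicate number as a block, library weights, sex as a covariate and each library left out. A list of ribosomal protein genes under other names is not reported here.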

Additional observations from a re-analysis of the deposited data

Results flagged for a closer look

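Of 78 groups of libraries checked, 5 held a library far from the others by Dixon's test, where chance gives about 1 in 20. WT4, in which all 64 members lay above their WT mean, was far above the other WT libraries at Rpl35 (513.8 FPKM, others 438.6 to 454.7) and at Rpl41 (1796 FPKM, others 1418 to 1515).

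Among loci upstream of members, WT1 read 0.101 FPKM before Rpl31 (other WT libraries 0.0169 to 0.0348) and 0.0338 before Rps26, where the other WT libraries were listed at 0. WT3 read 0.106 before Rps20, where the others were also listed at 0. At each of these 3 loci the KO libraries lay above these values.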

How the results depend on the processing

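Without a known depth, precision is limited to the spread between libraries. In HET against WT, 0 members passed in every alternative. The calls that appeared elsewhere were few. Under quantile normalization 2 members were higher in KO than in WT (Rpl41 and Rps4l), and in the authors' matrix 5 (Rpl23, Rpl7l1, Rpl35, Rps4l and Rps27l), where the median of all loci stood at 0.20. With library weights 2 were higher (Rpl35, Rps4l) and 1 lower (Rps27). In KO against HET the 1 lower call became 3 under quantile normalization, 2 in the authors' matrix, 4 with library weights (with 1 higher), and 0 without a filter, under the common sum and under the replicate block. The cause was not tested. Over all alternatives, the limma-trend adjusted p of Rps19 ran from 0.0028 to 1. Scaling to a common sum of the other loci moved the median difference to -0.095 in KO and -0.13 in HET against WT, and moved the median of all loci to -0.11 and -0.18. A single locus held 62.6% of all FPKM in HET4, 17.6% in HET3 and at most 8.67% in the other libraries.

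Leaving out each library in turn, the count was 0 to 1 higher and 0 to 1 lower in KO against WT (calls without KO1, KO2 or KO3), and 0 to 1 higher and 0 to 2 lower in KO against HET (other counts without WT1, HET4, HET5, KO1, KO2, KO3 or KO4). Upstream loci, whose alternatives were chosen after seeing the data, fell from 9 of 9 to 3 of 3 under a stricter filter, which left fewer to test. That filter asks for at least 1 FPKM in at least 6 libraries. The loci before Rpl31 and Rps21 met it through the KO libraries alone, so the 3 of 3 is no support. The replicate numbers did not pair the libraries: deviations of same-numbered libraries correlated between -0.32 and 0.19, and the replicate block changed no other count of member calls. Of 2334 alternative values of named members, 25 gained and 6 lost the call, and 157 uncalled values changed sign.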
